A study of Macaca mulatta with 5 samples.

Results

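The claustrum, a thin layer of neurons lying deep to the insula, is connected with much of the cerebral cortex. Studies in rodents use a small set of genes to tell its excitatory projection neurons from those of the neighbouring insula, and these genes were followed here in nuclei of macaque claustrum tissue. The set held 10 genes, NR4A2, GNB4, SYNPR, NTNG2, SMYD1, LXN, GNG2, SMIM32, NNAT and SLC30A3, of 21761 gene identifiers in the count tables. Symbols in the tables matched 9 of them, and NNAT was matched by its identifier through a table that pairs identifiers with symbols.

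Single-nucleus RNA counts (10x Genomics 3' kit, version 3) came from frozen tissue of 2 untreated male rhesus macaques. Of the 5 libraries, 3 are of the 18-month animal and 2 of the 17-month animal, so each age is a single animal and age cannot be told apart from animal. The labels do not say that libraries of an animal came from separate tissue pieces, and p-values measure only the spread between libraries, which may be technical. The libraries held 57299421 to 70896967 unique molecular identifiers (UMIs) in the 18-month animal and 47512670 to 50993715 in the 17-month animal, with medians of 2976 to 3485 UMIs per barcode. Of 40005 barcodes, 37091 passed the filters. Pairs of libraries shared 11 to 39 barcode sequences.

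The products of the 10 genes have unlike roles, known mostly from rodent and human work. NR4A2 (also called Nurr1) is an orphan nuclear receptor that can pair with retinoid X receptors and is induced by neuronal activity. GNB4 and GNG2 are a beta and a gamma subunit of heterotrimeric G proteins. NTNG2 (netrin-G2) is a membrane-anchored adhesion protein that binds a postsynaptic partner, and SYNPR (synaptoporin) and SLC30A3 (the vesicular zinc transporter ZnT3) sit in synaptic vesicle membranes. LXN (latexin) inhibits carboxypeptidases, NNAT (neuronatin) is a small membrane protein linked to calcium handling, SMYD1 is a methyltransferase best known from heart and skeletal muscle, and SMIM32 is a small membrane protein.

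Nuclei were clustered and named without any of these 10 genes. The naming thresholds, however, were set and revised after the levels of these genes had been seen. The excitatory class held 8502 nuclei, with a median of 15934 UMIs per nucleus. The inhibitory class held 2566 nuclei (median 8267 UMIs) and the striatal projection class 1852 nuclei (median 13820.5 UMIs). The glial classes were oligodendrocytes (11683 nuclei, median 2349 UMIs), oligodendrocyte precursors (2054), astrocytes (1188) and microglia (2829). Of the 7 genes on the excitatory marker list, 4 were high enough to be scored and named the class. The summed level of all 7 ran from 955 to 1085 CPM over the libraries in excitatory nuclei (CPM, UMIs of a gene for every 1000000 UMIs summed over the nuclei of a class). It ran from 136 to 175 in inhibitory nuclei, 159 to 197 in striatal projection nuclei and 202 to 347 in oligodendrocytes. Excitatory nuclei were divided again into 11 clusters. The cortical layer markers gave a layer name to 3 of them (clusters 7, 8 and 9) and to none of the other 8. Clusters 7 and 8 were named because at least 2 markers of a layer were among their 10 leading genes, and cluster 9 because its highest scores were for layer 6 corticothalamic (0.697) and layer 6b (0.614), with no marker among its leading genes. The score is the mean, over the markers of a layer, of the level divided by the highest level in any cluster. By score alone clusters 1 and 2 came nearest to layer 2/3 intratelencephalic cells (0.638 and 0.59), with none of those markers among their 10 leading genes, and cluster 7 to layer 5 extratelencephalic cells (0.987). The comparisons with layer-named nuclei rest on this naming.

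Of the 10 genes, 8 were high together in the same 4 excitatory clusters, numbered 1, 2, 4 and 6, none of which had a layer name. These clusters held 5124 nuclei, or 60.3% of the excitatory class. For 6 genes (NR4A2, GNB4, SYNPR, NTNG2, SMYD1 and GNG2) the lowest library in these 4 clusters lay above the highest library in the other 7 excitatory clusters, which was so for 0.705% of 10208 genes tested. The 4 clusters were grouped after the levels of the 10 genes were seen, so this share is no test of them. LXN and SMIM32 had higher means there, but single libraries overlapped. NNAT and SLC30A3 did not follow this pattern, and SLC30A3 ran against it. A level is given in CPM, as a mean ± SD over libraries (n = 5 unless another number is given), and levels of different genes are not compared.

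Over the set, 8 of 10 genes were higher than in layer-named nuclei in each of clusters 1, 2, 4 and 6, at an adjusted p under 0.05 and a fold change of at least 2. The median log2 fold change of the 10 genes was 2.91 in cluster 1, 2.84 in cluster 2, 2.77 in cluster 4 and 2.75 in cluster 6, against medians of -0.01 to 0.00 over all 10267 genes tested. Of those genes, 4.82% were called higher in cluster 1, 3.82% in cluster 2, 4.16% in cluster 4 and 3.84% in cluster 6, and 6.17%, 5.36%, 6.43% and 5.43% of them were called lower in clusters 1, 2, 4 and 6. In clusters 3, 5 and 11 only NTNG2 of the 10 was called higher and none was called lower, with 2.4%, 1.93% and 1.42% of all tested genes called higher in these 3 clusters. In cluster 12 NTNG2 and NNAT were called higher (3.07% of all genes) and SYNPR lower (3.65%). A test of any difference among the 11 clusters called 10 of 10 members, where 35.1% of 10208 genes were called. The members were left out of the clustering, but the clusters were made from other genes of the same nuclei. The choice of clusters 1, 2, 4 and 6 as a group was made after the members' levels were seen. The thresholds that set the layer-named nuclei were also revised after those levels were seen.

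**Figure D1:**
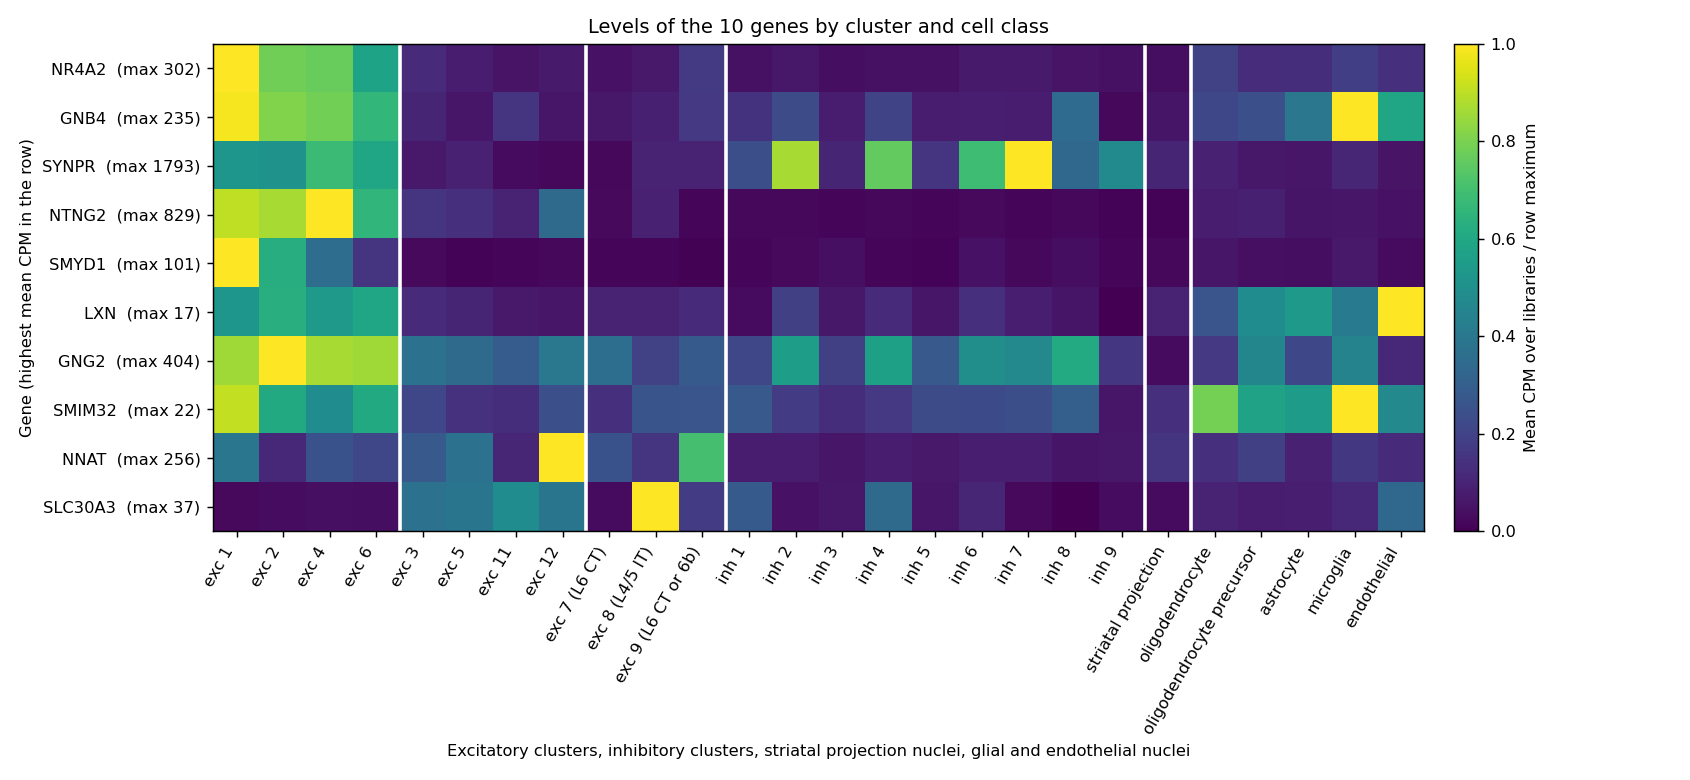
Mean level of each of the 10 genes (rows, with the highest mean CPM in brackets) in excitatory clusters, inhibitory clusters 1 to 9, striatal projection nuclei and non-neuronal classes (columns). Colour is the mean CPM over libraries divided by the maximum of the row. Clusters 1, 2, 4 and 6 carry the high values of NR4A2, NTNG2, SMYD1 and GNG2. Among the columns shown, SYNPR is highest in inhibitory cluster 7 and SLC30A3 in excitatory cluster 8.

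NR4A2 averaged 302 ± 56.6 CPM in cluster 1, 236 ± 10.4 in cluster 2, 232 ± 22.2 in cluster 4 and 176 ± 26.9 in cluster 6. Its means in the other 7 excitatory clusters ran from 14.6 to 51.2 CPM, the highest being cluster 9. In cluster 1 NR4A2 had 355, 298 and 216 CPM in libraries of the 18-month animal and 351 and 289 CPM in those of the 17-month animal, against 28.9, 25.5 and 20.6 CPM in libraries of the 18-month animal and 23.5 and 16.5 CPM in those of the 17-month animal in the pooled nuclei of the layer-named clusters. The log2 fold change of cluster 1 over the layer-named nuclei was 3.71 ± 0.16, adjusted p = 7.14e-18 (SE, edgeR quasi-likelihood test), and those of clusters 2, 4 and 6 were 3.29, 3.29 and 2.93. Among the 4 clusters the order was loose: neighbouring clusters overlapped from library to library, and cluster 1 lay above cluster 2 in 4 of 5 libraries. FOS and NPAS4, which neuronal activity induces, were among the 10 leading genes of cluster 1. NR4A1, a relative of NR4A2 that activity also induces, was higher in cluster 1 than in layer-named nuclei (log2 fold change 1.38) and lower in cluster 6 (-1.54). The part of activity in the NR4A2 levels was not tested.

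NTNG2 was high in the 4 clusters and was called in more of the other excitatory clusters than any other of the 10 genes. It averaged 750.4 ± 79 CPM in cluster 1, 722 ± 50.8 in cluster 2, 829 ± 51.2 in cluster 4 and 544 ± 71.5 in cluster 6. It was also at 287 CPM in cluster 12 (n = 2 libraries), 124 ± 19.5 in cluster 3 and 113 ± 26.5 in cluster 5, against 32.9 ± 11.1 CPM in layer-named nuclei. In cluster 4 NTNG2 had 831, 903 and 758 CPM in libraries of the 18-month animal and 829 and 825 CPM in those of the 17-month animal. The layer-named nuclei had 24.5, 45.6 and 19.1 CPM in libraries of the 18-month animal and 41.4 and 34 CPM in those of the 17-month animal. Its log2 fold change over layer-named nuclei was 4.62 ± 0.14, adjusted p = 2.04e-21 in cluster 4 by edgeR. NTNG2 was also the only one of the 10 genes that was higher than in layer-named nuclei in all 8 clusters without a layer name, with log2 fold changes of 3.24 in cluster 12, 1.90 in cluster 3, 1.74 in cluster 5 and 1.18 in cluster 11. Cluster 11 was summed in 3 libraries, and its call was lost without 18-month library 2 (adjusted p = 0.056), in the 18-month libraries alone (adjusted p = 0.133) and in the 17-month libraries alone, where the fold change fell under the threshold (0.93).

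SMYD1 had the steepest gradient among the 4 clusters. It averaged 101 ± 20.9 CPM in cluster 1, 63.1 ± 5.87 in cluster 2, 36 ± 5.7 in cluster 4 and 15.4 ± 4.37 in cluster 6, and at most 2.52 CPM in any other excitatory cluster. In every one of the 5 libraries the order was 1, 2, 4, 6. In cluster 1 SMYD1 had 134, 103 and 75.9 CPM in libraries of the 18-month animal and 94.1 and 99.2 CPM in those of the 17-month animal. In cluster 6 it had 21.2, 14.7 and 9.21 CPM in libraries of the 18-month animal and 17.3 and 14.9 CPM in those of the 17-month animal. The ratio of cluster 1 to cluster 6 within a library ran from 5.45 to 8.24, with a median of 6.66. Over layer-named nuclei the log2 fold changes were 6.30 ± 0.19 in cluster 1 and 3.56 ± 0.29 in cluster 6, with edgeR adjusted p values of 3.10e-29 and 5.57e-14. Outside excitatory nuclei SMYD1 was at 2.24 CPM in inhibitory and 2.0 CPM in striatal projection nuclei. Microglia had 7.04 ± 1.19 CPM and oligodendrocytes 6.27 ± 2.56 CPM.

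The G protein subunits GNB4 and GNG2 were higher in the same clusters and were also found at high levels outside them. GNB4 averaged 232 ± 32.5 CPM in cluster 1, 190.4 ± 35.8 in cluster 2, 185 ± 29.7 in cluster 4 and 156 ± 30.4 in cluster 6, and 14.1 to 39.3 CPM in the other excitatory clusters. Microglia had 235 ± 21 CPM, committed oligodendrocyte precursors 310.3 ± 115 CPM (n = 4) and endothelial nuclei 139 ± 15.4 CPM. In cluster 1 GNB4 had 242, 206 and 189 CPM in libraries of the 18-month animal and 265 and 256 CPM in those of the 17-month animal. In layer-named nuclei it had 15.3, 19.7 and 16 CPM in libraries of the 18-month animal and 27.6 and 24.8 CPM in those of the 17-month animal. The log2 fold change of GNB4 in cluster 1 over layer-named nuclei was 3.51 ± 0.11, adjusted p = 5.43e-25 by edgeR. GNG2 averaged 347 ± 25.2 CPM in cluster 1, 404 ± 23.5 in cluster 2, 352 ± 23.9 in cluster 4 and 346 ± 5.26 in cluster 6, against 125 ± 17.6 CPM in layer-named nuclei. Its fold changes there were smaller than those of GNB4, at 1.48 to 1.64 on the log2 scale. Striatal projection nuclei had the lowest GNG2 mean of the named classes, at 11.9 ± 4.95 CPM.

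SYNPR was high both in the 4 clusters and in inhibitory neurons. It averaged 943 ± 275 CPM in cluster 1, 913 ± 268 in cluster 2, 1224 ± 247 in cluster 4 and 1060.3 ± 104 in cluster 6, against 94 ± 25.2 CPM in layer-named nuclei. Inhibitory cluster 7 reached 1793 ± 119 CPM, inhibitory cluster 2 1559.8 ± 144 CPM and inhibitory cluster 4 1359.5 ± 48.9 CPM, while inhibitory cluster 3 had 185 ± 45.8 CPM. VIP and SCGN were among the 10 leading genes of inhibitory cluster 2. In excitatory cluster 4 SYNPR had 991, 1077 and 1071 CPM in libraries of the 18-month animal and 1453 and 1529 CPM in those of the 17-month animal. In layer-named nuclei it had 85.2, 75.7 and 70.6 CPM in libraries of the 18-month animal and 131 and 107 CPM in those of the 17-month animal. In cluster 4 the log2 fold change over layer-named nuclei was 3.69 ± 0.15, adjusted p = 6.85e-18 by edgeR. Excitatory cluster 12, which had high NTNG2, had a SYNPR log2 fold change of -1.23 (adjusted p = 0.0417), a call that was lost under 7 alternatives, among them the fits without 17-month library 1 (adjusted p = 0.446) and without 18-month library 1 (0.224).

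**Figure D2:**
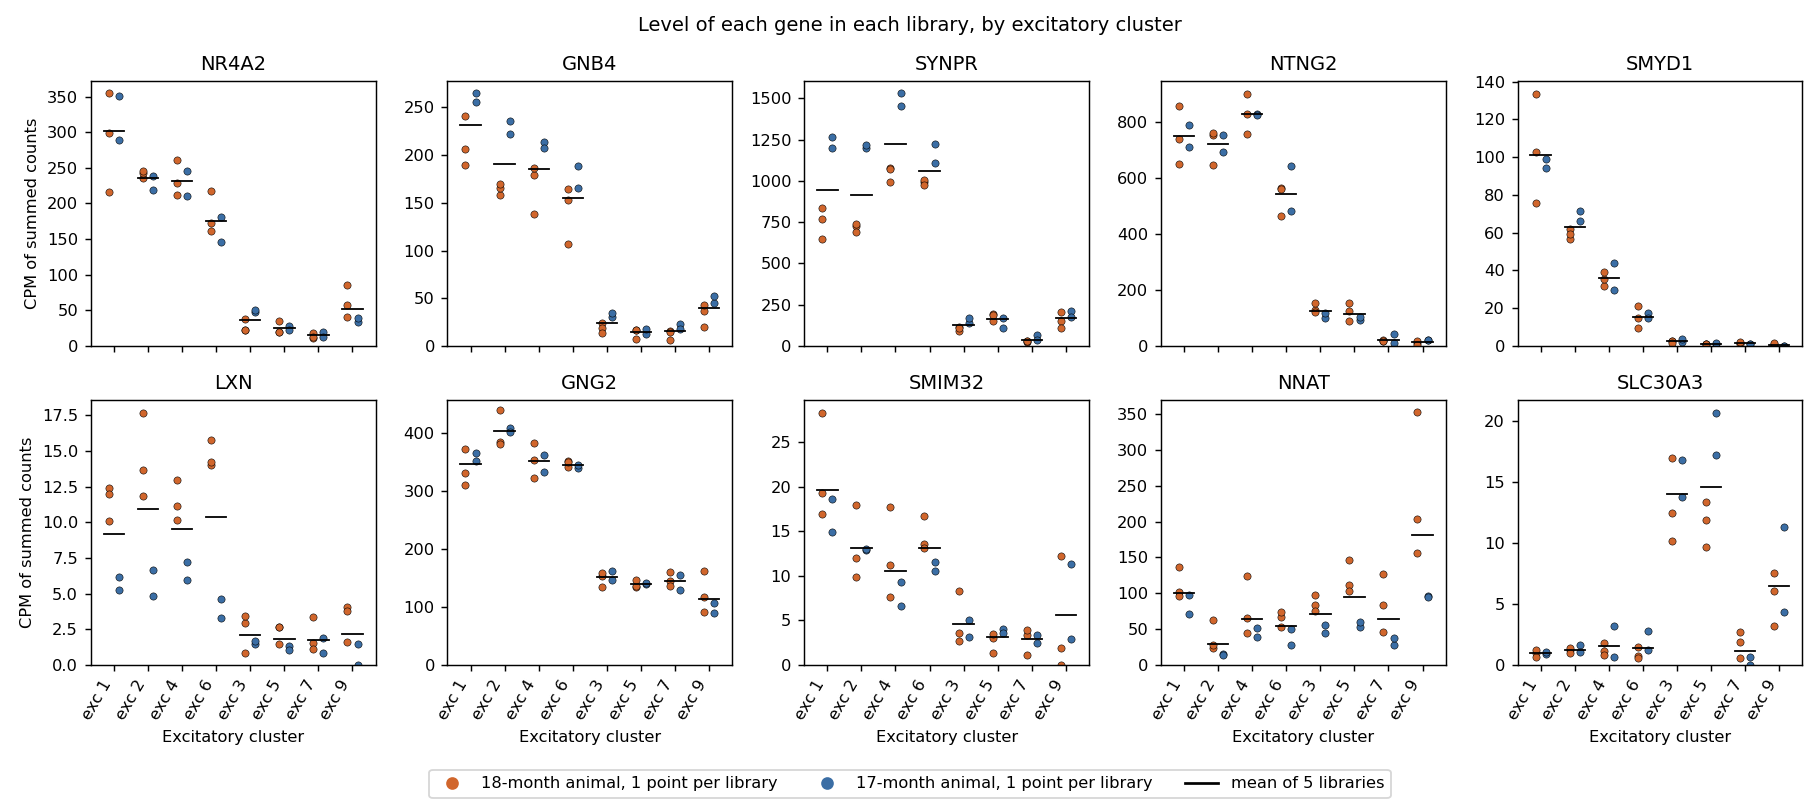
Level of each gene in each library, in CPM, in excitatory clusters 1, 2, 4, 6, 3, 5, 7 and 9; each point is 1 library, coloured by animal, and the black line is the mean. Clusters 8, 11 and 12 are left out because not all 5 libraries had 20 of their nuclei. The points of clusters 1, 2, 4 and 6 lie above those of the other clusters in NR4A2, GNB4, SYNPR, NTNG2, SMYD1 and GNG2, and SMYD1 steps down from cluster 1 to cluster 6.

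LXN and SMIM32 were low throughout, and their values rest on few UMIs per library. LXN averaged 9.17 ± 3.29 CPM in cluster 1, 10.9 ± 5.22 in cluster 2, 9.5 ± 2.88 in cluster 4 and 10.4 ± 5.91 in cluster 6, against 1.76 ± 1.04 CPM in layer-named nuclei. The log2 fold changes were 2.40 to 2.59. Endothelial nuclei had the highest mean of any named class or cluster, 17.5 ± 9.32 CPM. SMIM32 averaged 19.6 ± 5.11 CPM in cluster 1 and 10.5 to 13.1 CPM in clusters 2, 4 and 6, against 3.85 ± 1.76 CPM in layer-named nuclei. The SMIM32 log2 fold change was 2.48 in cluster 1 and 1.53 in cluster 4, and the cluster 4 call was lost in the 17-month libraries alone (0.86, adjusted p = 0.0929). Outside excitatory neurons SMIM32 was at 21.6 ± 7.63 CPM in microglia and 17 ± 4.92 CPM in oligodendrocytes, within the range of the 4 excitatory clusters or above it.

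NNAT split the 4 clusters. It averaged 101 ± 23.8 CPM in cluster 1 but 28.7 ± 19.7 CPM in cluster 2, with 64.7 ± 34.2 in cluster 4 and 54.4 ± 17.7 in cluster 6. Cluster 1 had 102, 96.3 and 137 CPM in libraries of the 18-month animal and 97.8 and 70.7 CPM in those of the 17-month animal. Cluster 2 had 24.3, 27.8 and 62.3 CPM in libraries of the 18-month animal and 15.7 and 13.4 CPM in those of the 17-month animal. Cluster 1 was higher in 5 of 5 libraries, by 2.2 to 6.21 times. The highest NNAT levels lay elsewhere, in cluster 12 (256 ± 66.1 CPM, n = 2) and in cluster 9 (181 ± 106 CPM), a cluster named for layer 6 corticothalamic or layer 6b cells. Relative to layer-named nuclei, NNAT was lower in cluster 2 (log2 fold change -1.66 ± 0.18, adjusted p = 1.16e-08 by edgeR) and higher in cluster 12 (1.84 ± 0.28, adjusted p = 1.50e-05). It did not pass the test in clusters 1, 4 and 6 (0.35, -0.41 and -0.59). NNAT overlaps the gene BLCAP in the RefSeq annotation of the macaque assembly T2T-MMU8v2.0. Whether the counting used strand is not given in the sources used here, so whether reads of both were told apart is not known. LXN overlaps GFM1 and SLC30A3 overlaps DNAJC5G in the same annotation, and GNB4, SYNPR and NTNG2 overlap loci that have no gene name there (1 for GNB4, 2 for SYNPR and 1 for NTNG2), with the same limit.

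SLC30A3 was the one member that was lower in all 4 clusters. It averaged 0.974 to 1.54 CPM there, against 10.5 ± 4.11 CPM in layer-named nuclei. In clusters 1, 2, 4 and 6 it had only 34, 35, 23 and 16 UMIs, summed over 5 libraries. In cluster 1 it had 1.0, 0.629 and 1.26 CPM in libraries of the 18-month animal and 0.88 and 1.1 CPM in those of the 17-month animal. Layer-named nuclei had 6.99, 15.1 and 5.34 CPM in libraries of the 18-month animal and 12.8 and 12.1 CPM in those of the 17-month animal. The log2 fold changes were -3.40 ± 0.26 in cluster 1, -3.15 in cluster 2, -2.83 in cluster 4 and -3.08 in cluster 6, with an edgeR adjusted p of 6.21e-16 in cluster 1. Cluster 8, which carried the layer 4/5 markers RORB and IL1RAPL2, had the highest level of the excitatory clusters at 37.3 ± 8.62 CPM (n = 4). Cluster 7, also layer-named, had 1.16 ± 1.11 CPM. The low level in the 4 clusters is not a contrast with every layer-named cluster. CRYM, a thyroid hormone-binding protein that rodent studies use for its low level in claustrum, was at 0.785 to 3.72 CPM in the 4 clusters, against 46 ± 4.81 CPM in layer-named nuclei (log2 fold change -5.80 ± 0.20 in cluster 1).

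Single nuclei often held UMIs of several of the genes. In cluster 1, 96.6% of nuclei had a UMI of at least 5 of the 10 genes, in cluster 2 87.2%, in cluster 4 88.5% and in cluster 6 91.6%. The share was 33.5% in cluster 3, 17.3% in cluster 5 and 3.21% in cluster 7. Depth was close in clusters 1 and 3, with medians of 18014 and 17758 UMIs per nucleus, and lower in cluster 7 (13718 UMIs). With every nucleus thinned to 1000 UMIs, the mean number of the 10 genes found was 2.07 in cluster 1, 0.532 in cluster 3 and 0.305 in cluster 7.

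Single genes at this thinned depth showed the same split between clusters. NR4A2 was found in 26.9% (24.9 to 29) of cluster 1 nuclei and in 4.08% (3.06 to 5.33) of cluster 3 nuclei (exact Clopper-Pearson 95% intervals, which cover counting error only). Striatal projection nuclei, with a median of 13820.5 UMIs before thinning, had 1.67% (1.14 to 2.37) for NR4A2 and oligodendrocytes, with a median of 2349, had 5.82% (5.4 to 6.27). Striatal projection nuclei are taken as the background from free RNA in what follows. They give a low background, since the NR4A2 share in oligodendrocytes lay above theirs and above that of cluster 3. The part of free RNA in the other classes was not tested. NTNG2 was found in 56.3% (53 to 59.5) of cluster 4 nuclei and in 1.03% (0.619 to 1.6) of striatal projection nuclei. SMYD1 was found in 9.05% (7.77 to 10.5) of cluster 1 nuclei and 1.78% (0.893 to 3.17) of cluster 6 nuclei, with 0.216% (0.0589 to 0.552) in striatal projection nuclei. Unthinned, the share of nuclei with a UMI of NR4A2 was 96.3% in cluster 1 and 12.5% in striatal projection nuclei. The unthinned NTNG2 share was 99.9% in cluster 1 and 11.4% in striatal projection nuclei, and that of SMYD1 was 65.6% in cluster 1 and 2.11% in striatal projection nuclei. LXN was found in 1.1% (0.671 to 1.69) of cluster 1 nuclei at the thinned depth. It was found in 0.324% (0.119 to 0.704) of striatal projection nuclei and in 0.502% (0.381 to 0.648) of oligodendrocytes, all low shares. SLC30A3 was found in 4.19% (2.25 to 7.06) of cluster 8 nuclei and 0.219% (0.0598 to 0.561) of cluster 1 nuclei. Striatal projection nuclei had 0.054% (0.00137 to 0.301), so the cluster 1 share is within the counting error of the background. The highest SLC30A3 share at this depth lay in inhibitory cluster 10 (81 nuclei), and at 2000 UMIs in excitatory cluster 8.

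The whole excitatory class was then compared with the other neurons. Against inhibitory nuclei, 7 of the 10 genes were higher in excitatory nuclei, where 7.35% of 11177 tested genes were. The median log2 fold change was 1.78 for the 10 genes and -0.01 for all tested genes. NTNG2 had 508, 497 and 476 CPM in libraries of the 18-month animal and 448 and 488 CPM in those of the 17-month animal in excitatory nuclei, against 11.8, 16.1 and 9.16 CPM in libraries of the 18-month animal and 22.6 and 23 CPM in those of the 17-month animal in inhibitory nuclei (log2 fold change 4.95 ± 0.24, adjusted p = 5.08e-05 by edgeR). NR4A2 had 201, 154 and 150.3 CPM in libraries of the 18-month animal and 172 and 151 CPM in those of the 17-month animal in excitatory nuclei, against 21.1, 15.3 and 9.41 CPM in libraries of the 18-month animal and 15.2 and 12.7 CPM in those of the 17-month animal in inhibitory nuclei (3.54 ± 0.08, adjusted p = 4.83e-14 by edgeR). For both genes the lowest excitatory library lay far above the highest inhibitory library. SMYD1 (4.20), LXN (1.97), GNB4 (1.95), NNAT (1.61) and SMIM32 (1.41) made up the rest. GNG2 (0.94) passed the adjusted p but missed the fold threshold, and SYNPR (-0.34) and SLC30A3 (0.00 ± 0.18) were not called. The NNAT call was lost without 17-month library 1 (adjusted p = 0.0581), without 18-month library 1 (0.0715) and without 18-month library 2 (0.0708), and in the 17-month libraries alone its log2 fold change was 0.83 (adjusted p = 0.291).

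Against striatal projection nuclei, 9 of the 10 genes were higher in excitatory nuclei, where 12.2% of 11312 tested genes were. The median log2 fold change was 2.68, against -0.01 for all tested genes. GNG2 stood out from its inhibitory comparison: excitatory nuclei had 313, 253 and 278 CPM in libraries of the 18-month animal and 277 and 273 CPM in those of the 17-month animal, against 11, 9.56 and 10.5 CPM in libraries of the 18-month animal and 20.5 and 7.88 CPM in those of the 17-month animal in striatal projection nuclei (log2 fold change 4.46 ± 0.15, adjusted p = 2.37e-08 by edgeR). NTNG2 (5.59), SMYD1 (4.58), NR4A2 (3.83) and GNB4 (3.23) were also called, and SLC30A3 (2.14), LXN (1.90), SMIM32 (1.85) and SYNPR (1.69) were called with smaller values. NNAT was not called (0.87 ± 0.44, adjusted p = 0.155 by edgeR). SYNPR in excitatory nuclei was thus called higher against striatal projection nuclei and was not called against inhibitory nuclei, whose clusters reach the highest SYNPR levels of the tissue.

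**Figure D3:**
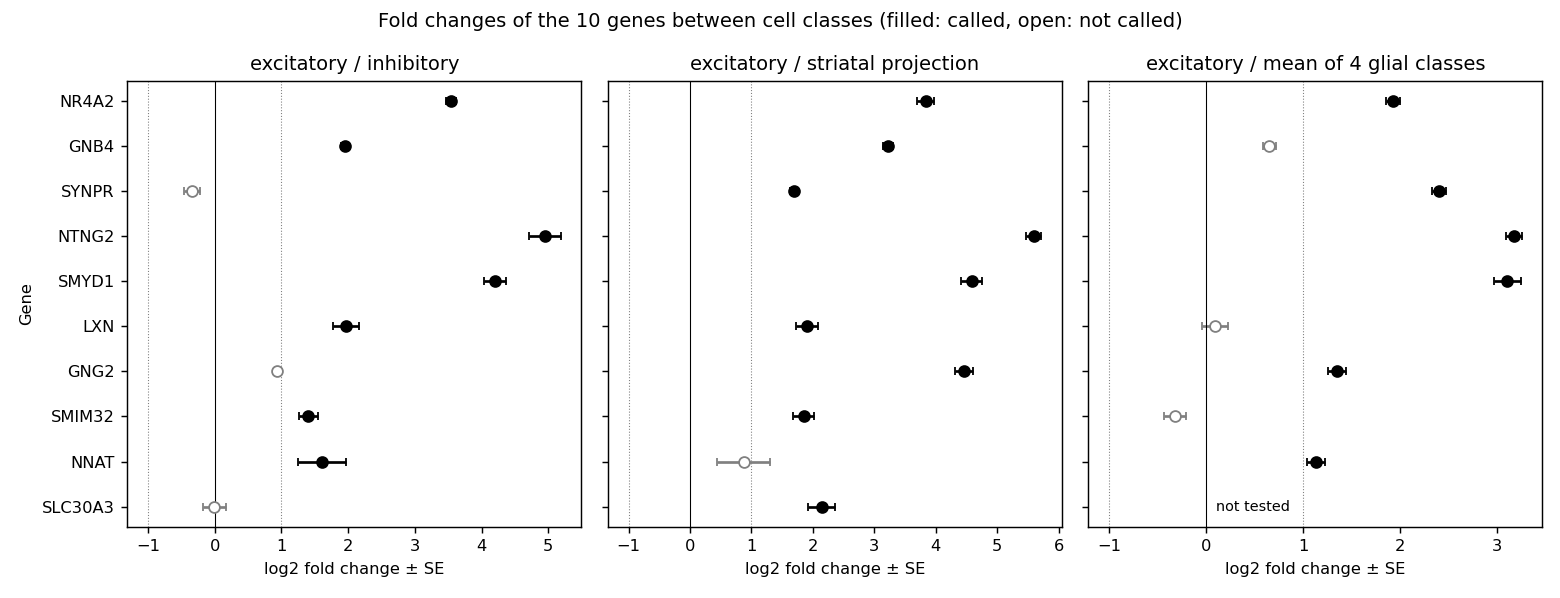
Log2 fold change with its standard error for each gene in excitatory nuclei against inhibitory nuclei, striatal projection nuclei and the mean of 4 glial classes (edgeR, 5 libraries). Filled points were called and open points were not, and positive values are higher in excitatory nuclei. NTNG2, SMYD1 and NR4A2 are high in all 3 comparisons, SYNPR is near 0 only against inhibitory nuclei, and SMIM32 and LXN are near 0 against glia.

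Against the mean of 4 glial classes, 9 of the 10 genes were tested and 6 were higher in excitatory nuclei, where 15.2% of 9306 tested genes were. SLC30A3 was left out by the filter on low counts. NTNG2 (3.17), SMYD1 (3.10), SYNPR (2.40), NR4A2 (1.93), GNG2 (1.34) and NNAT (1.13) were called. GNB4 (0.65 ± 0.07, adjusted p = 1.53e-09 by edgeR), LXN (0.09 ± 0.14) and SMIM32 (-0.32 ± 0.11) were not. GNB4 and SMIM32 differed in adjusted p but not by the fold that a call needs. The NNAT value fell under that fold in the 17-month libraries alone (0.95).

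Levels in glia were read beside the excitatory marker genes, since free RNA can enter droplets. None of the 7 excitatory markers was at 0 in the glial classes. The summed list in oligodendrocytes was 25.1% (21.2 to 36.2%) of its level in excitatory nuclei (median and range over 5 libraries). NR4A2 in oligodendrocytes was at 37.1% (25.3 to 40.4%), SYNPR at 24.3% (18.9 to 32.4%) and NTNG2 at 13.2% (12.3 to 16.9%) of the excitatory level. GNB4 in microglia was at 180.0% (145 to 235%), while the excitatory marker list there was at 29.6% (24.7 to 41.4%). GNG2 in oligodendrocyte precursors was at 66.4% (60.9 to 73.7%), with the marker list at 17.3% (11.8 to 24%). SMIM32 was above its excitatory level in microglia, at 201% (123 to 269.7%), and in oligodendrocytes, at 154% (123 to 196%), and in oligodendrocyte precursors its range spanned that level, at 108% (94.5 to 154%). LXN also had medians above its excitatory level, at 147% (69.7 to 156%) in astrocytes and 124% (79.7 to 279.6%) in oligodendrocyte precursors, and its libraries lay on both sides of that level. SMYD1 had medians below the marker list, at 15.4% (7.77 to 25.7%) in oligodendrocytes and 16% (12.9 to 22.6%) in microglia. The part of free RNA in the glial levels at or below the marker list was not tested.

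**Figure D4:**
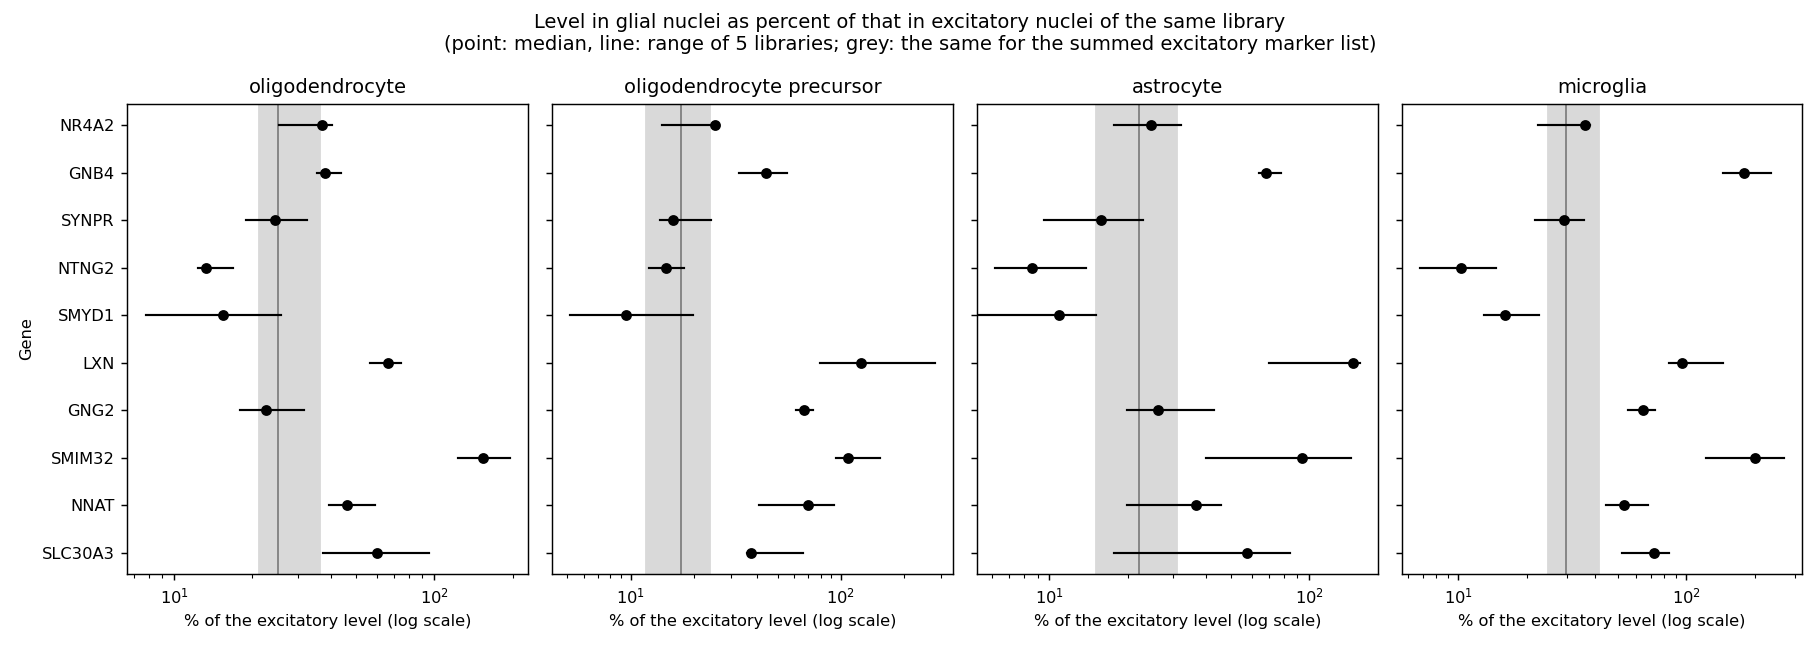
Level of each gene in 4 glial classes as a percent of its level in excitatory nuclei of the same library (log axis; points are medians over 5 libraries, lines the range); the grey line and band are the median and range of the summed excitatory marker list. GNB4 in microglia and SMIM32 in microglia and oligodendrocytes lie above 100% in every library, and LXN in astrocytes and precursors and SMIM32 in precursors have medians above 100%, while the medians of NTNG2 and SMYD1 lie below the grey line. The SMYD1 line in astrocytes runs down to 0 and is cut off.

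In contrasts among glia chosen after these values were seen, GNB4 was higher in microglia than in oligodendrocytes. Microglia had 247, 227 and 264 CPM in libraries of the 18-month animal and 226 and 209.6 CPM in those of the 17-month animal, against 50.5, 43.2 and 39.9 CPM in libraries of the 18-month animal and 65.1 and 54.9 CPM in those of the 17-month animal in oligodendrocytes (log2 fold change 2.03 ± 0.10, adjusted p = 1.86e-16 by edgeR). GNG2 was also higher in microglia (1.25 ± 0.14, adjusted p = 3.74e-08), where 12.6% of all tested genes were called higher. GNG2 was higher in oligodendrocyte precursors than in oligodendrocytes as well (1.52 ± 0.14, adjusted p = 1.58e-09), the one of 9 members that was called there, where 12% of all genes were called higher. None of 9 was called in astrocytes against oligodendrocytes, where 21.5% of all genes were called in either direction. The largest astrocyte values were LXN (0.89) and GNB4 (0.82).

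Most genes related to the members, by family or as partners of their products, did not pass the test against layer-named nuclei, and those that did differed in both directions. Of a list of 60 relatives and partners, 58 were found in the files. In clusters 1, 2, 4 and 6, 50 were tested, and 6, 5, 4 and 3 of them were higher than in layer-named nuclei while 6, 6, 8 and 8 were lower. These shares can be read beside the 11%, 9.18%, 10.6% and 9.27% of all tested genes called in either direction. Among G protein subunits, GNAO1, the main alpha subunit of brain, was higher in all 4 clusters (1.19 to 1.57), as were the gamma subunits GNG4 (1.55 to 2.87) and GNG7 (1.07 to 1.74). GNG12, another gamma subunit, was lower in all 4 (-5.18 in cluster 1 and -2.12 in cluster 2). RXRA, a retinoid X receptor, was lower in all 4 (-2.37 to -1.54).

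NTNG1, the paralog of NTNG2, was lower, at -1.14 in cluster 1 and -2.17 in cluster 2 over layer-named nuclei. It was also lower in excitatory than in inhibitory nuclei (-2.96). PTPRD, a receptor phosphatase of the synaptic adhesion group, was lower in all 4 clusters (-1.37 to -1.20). SLC30A10, a transporter best known for manganese export, was lower in all 4 (-2.50 to -1.99), while SLC30A4, a zinc transporter, was higher in clusters 1 and 2 (1.04 in each).

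Against striatal projection nuclei, 12 of 51 relatives were higher and 7 lower in excitatory nuclei, where 20.6% of all tested genes were called. The gamma subunits differed in direction. GNG2 was higher in excitatory nuclei, while GNG7 was lower in them (-3.51) and GNG4 was higher (3.68). The G protein-gated potassium channel genes KCNJ6 (5.46) and KCNJ3 (4.12) were higher in excitatory nuclei. RXRG, a retinoid X receptor, was lower in them (-6.48) and RXRA higher (1.82). Against inhibitory nuclei, 8 of 51 were higher and 4 lower (background 14.1%), among them NR4A1 (1.46) and NR4A3 (1.49), both higher, as NR4A2 was. Against glia, 14 of 47 were higher and 6 lower (background 27.2%).

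Among themselves the members formed no single pattern over 29 classes and clusters. The Pearson correlation of mean log2(CPM + 1) was 0.84 between NR4A2 and SMYD1, 0.82 between NR4A2 and NTNG2 and 0.81 between GNB4 and SMIM32. It was -0.01 between SYNPR and NTNG2, -0.34 between SYNPR and NNAT and -0.35 between SLC30A3 and SMYD1. The median of the 45 pairs was 0.36. These are descriptions, since classes share libraries and free RNA.

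Among 9915 genes used neither for clustering nor for naming, the pattern most like that of SMYD1 belonged to IL19, an interleukin gene (0.94), FSHR, the follicle-stimulating hormone receptor (0.90), and MCOLN3, a mucolipin channel gene (0.89). FSHR (0.87) and IL19 (0.86) were also among the 3 most like NR4A2. NTNG2 was nearest to CPNE4 (0.92), with MED27 (0.91) in the third place, SYNPR to ZCCHC12 (0.81), GNG2 to ADCY2, an adenylyl cyclase (0.83), and GNB4 to IGF2BP2 (0.82), an RNA-binding protein. LXN was nearest to HP1BP3 (0.83), SMIM32 to GASK1B (0.81), NNAT to NDFIP2 (0.81) and SLC30A3 to ZPR1 (0.70).

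The last comparison set the 18-month animal against the 17-month animal in excitatory nuclei. Of the 10 genes, LXN was higher and SYNPR lower in the 18-month animal (adjusted p under 0.05 by edgeR, whatever the fold), where 7.77% of 12148 tested genes were higher and 8.51% lower. In either direction 16.3% of all tested genes were called, a share near that of the 10 genes. LXN had 9.04, 7.65 and 10.2 CPM in libraries of the 18-month animal and 3.68 and 4.0 CPM in those of the 17-month animal (log2 fold change 1.26 ± 0.16, adjusted p = 0.00173 by edgeR), and the animals did not overlap. SYNPR had 605, 519.5 and 552 CPM in libraries of the 18-month animal and 784 and 818 CPM in those of the 17-month animal (-0.48 ± 0.07, adjusted p = 0.00296 by edgeR). The SYNPR call was lost without 17-month library 2 (adjusted p = 0.0532). NR4A2 (0.10 ± 0.13), NTNG2 (0.12 ± 0.06), SMYD1 (0.17 ± 0.16) and GNG2 (0.07 ± 0.07) were not called. NNAT averaged 89.8 CPM in the 18-month animal and 50.3 CPM in the 17-month animal and was not called (log2 fold change 0.88 ± 0.30, adjusted p = 0.144 by edgeR).

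Within single clusters, in fits chosen after these values were seen, LXN was higher in the 18-month animal in cluster 1 (1.10 ± 0.21, adjusted p = 0.0133 by edgeR), cluster 2 (1.36 ± 0.25, adjusted p = 0.00322) and cluster 6 (1.88 ± 0.32, adjusted p = 0.00174), and was not called in cluster 4 (0.83 ± 0.29, adjusted p = 0.121). SYNPR was lower in cluster 1 (-0.64), cluster 2 (-0.71) and cluster 4 (-0.46), and not called in cluster 6 (-0.20). GNB4 was lower in cluster 2 (-0.44 ± 0.07, adjusted p = 0.00174 by edgeR). Of all tested genes, 6.89%, 11.6%, 4.59% and 5% were called in clusters 1, 2, 4 and 6. Of 52 relatives and partners tested in excitatory nuclei, 7 were higher and 3 lower in the 18-month animal, a share near that of all tested genes (16.3%). The same order of the animals was seen in oligodendrocytes, where LXN had 6.03, 4.59 and 7.61 CPM in libraries of the 18-month animal and 2.46 and 2.26 CPM in those of the 17-month animal and SYNPR had 152, 126 and 104 CPM in libraries of the 18-month animal and 254 and 175 CPM in those of the 17-month animal. The part of free RNA in the oligodendrocyte values was not tested.

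**Figure D5:**
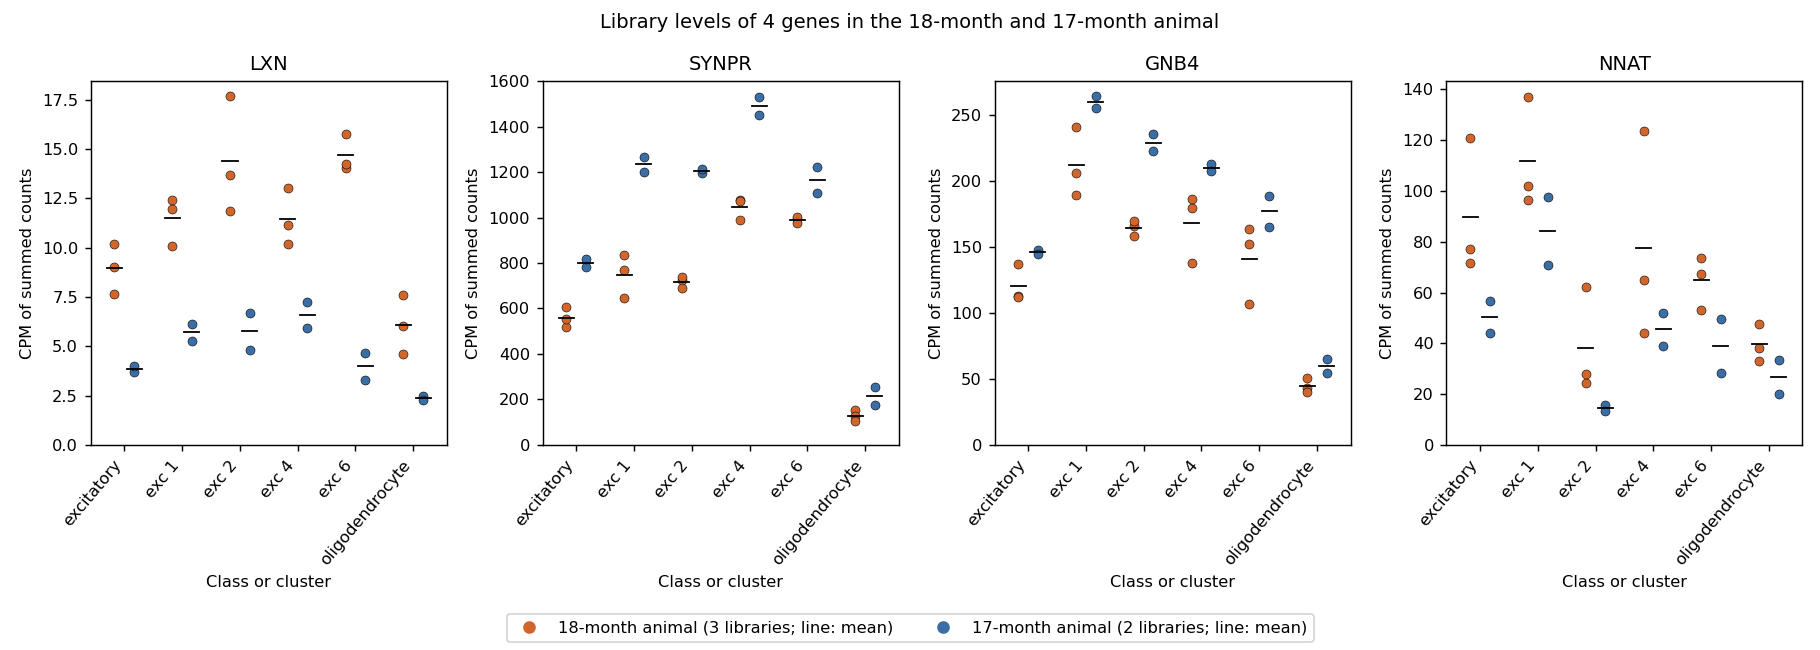
Levels of LXN, SYNPR, GNB4 and NNAT in CPM in the 3 libraries of the 18-month animal (left) and the 2 libraries of the 17-month animal (right), in excitatory nuclei, excitatory clusters 1, 2, 4 and 6 and oligodendrocytes; each point is 1 library and the line is the mean. LXN in excitatory nuclei lies higher in all 3 libraries of the 18-month animal, and SYNPR lies lower in them.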

How the data were processed

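RNA of single nuclei from frozen claustrum tissue was measured in 5 libraries, 3 of the 18-month and 2 of the 17-month animal. The authors deposited raw UMI counts per gene and barcode for each library, and per the file headers these came from Cell Ranger 5.0.1. The submitters' processing notes also name CASAVA 1.8, Seurat and the builds Mmul_10 and mm10. The barcode filter of the authors, and whether introns and strand entered the counting, are not given in the sources used here. Whether a gene's count includes reads of a gene that overlaps it is therefore not known.

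Barcodes with fewer than 500 genes (359) were removed, the limit of 5% mitochondrial UMIs removed none, and the 2555 highest doublet scores (Scrublet in scanpy 1.11.5, 0.8% per 1000 barcodes of a library) were removed. Genes were split at random into 2 equal sets (seed 1), and clustering used 1 set only: its 2000 most variable genes, after the 10 genes, their relatives and the marker genes had been removed. Counts scaled to 10000 per nucleus gave 30 principal components, which a Harmony-style step adjusted for library and which were clustered by Leiden (igraph 0.11.9, 15 neighbours, resolution 1.0, and 0.6 within excitatory and inhibitory nuclei). Classes and layers were named from marker lists that hold none of the 10 genes. Of 14 excitatory clusters, 3 (255 nuclei) with glial leading genes or under 50 nuclei were set aside. The members and lists were chosen with earlier results of these data known. The naming thresholds were set and revised after clusters and member levels had been seen.

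Counts were summed per library and class or cluster with at least 20 nuclei and compared by the robust quasi-likelihood test of edgeR 4.0.16 in R 4.3.3, with TMM scaling, the filter filterByExpr and the library as a block. Only genes used neither for clustering nor for naming were tested, and p-values were adjusted over all of them by Benjamini-Hochberg. A call needs an adjusted p under 0.05 together with a change of 1 or more on the log2 scale in either direction, or that p alone between animals. The fits were tested on simulated data. DESeq2 1.42.0, other size factors, no filter on low counts, other filters on nuclei, and leaving out each library or animal were the alternatives. The named genes are the 10 members, the 3 genes of most like pattern for each at 10 CPM or more in a class, and those of a list of relatives and partners whose calls are described, which were chosen after their values were seen.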

Additional observations from a re-analysis of the deposited data

Results flagged for a closer look

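In 122 groups of 5 libraries, 1 library stood apart from the others 4 times, where chance gives about 1 in 20 groups. SMYD1 in excitatory nuclei was at 53.4 CPM in 18-month library 1 and at 36.7 to 40.7 CPM in the other libraries. GNG2 in striatal projection nuclei was at 20.5 CPM in 17-month library 1 and at 7.88 to 11 CPM in the others. NTNG2 in the same nuclei of the same library was at 14.7 CPM, with 7.71 to 9.70 CPM in the others. NNAT in inhibitory nuclei was at 39.3 CPM in 17-month library 2 and at 20.8 to 21.9 CPM in the others.

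Among 120 differences compared between the animals, 4 ran one way in every library of the 18-month animal and the other way in every library of the 17-month animal. These opposite directions were not tested. NNAT in excitatory minus striatal projection nuclei was 60.5 CPM in the 18-month animal and -4.29 CPM in the 17-month animal. LXN in excitatory nuclei minus microglia was 0.736 CPM in the 18-month animal and -1.63 CPM in the 17-month animal. SMIM32 in excitatory cluster 3 minus layer-named nuclei was 1.35 CPM in the 18-month animal and -0.214 CPM in the 17-month animal. SMYD1 in excitatory cluster 5 minus layer-named nuclei was -0.554 CPM in the 18-month animal and 0.434 CPM in the 17-month animal, both at very low levels.

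Several broad clusters stayed unnamed and entered no comparison. The largest was number 3 (2835 nuclei), which scored highest for the oligodendrocyte markers (0.821). All 10 genes were found in another of them, number 8, with 1899 nuclei and a median of 984 UMIs per nucleus. It scored highest for the excitatory markers (0.908), but none of them was among its 10 leading genes, which GFAP, an astrocyte marker, led. It entered no comparison. NR4A2 averaged 204 CPM there, GNB4 146, SYNPR 575, NTNG2 259 and GNG2 254 CPM. SMYD1 averaged 23.6 CPM, LXN 16.3, SMIM32 56.5, NNAT 119.9 and SLC30A3 7.81 CPM. The ratio of summed counts of NR4A2 to NTNG2 was 0.763 in this cluster (0.547 to 1.27 over libraries) and 0.345 in excitatory nuclei (0.309 to 0.396), and lay between 0.531 in oligodendrocyte precursors and 1.09 in microglia in the 4 glial classes and endothelial nuclei. That of SMIM32 to NTNG2 was 0.210 in the cluster (0.144 to 0.355) and 0.0234 in excitatory nuclei (0.0172 to 0.0328). In those other classes it lay between 0.176 in oligodendrocyte precursors and 0.415 in microglia. The ratios of GNB4 (0.557), LXN (0.0590), NNAT (0.450) and SLC30A3 (0.0288) to NTNG2 in the cluster lay between excitatory nuclei and those other classes. In excitatory nuclei they were 0.269, 0.0147, 0.155 and 0.0122. Those of SYNPR, GNG2 and SMYD1 lay within the range of those other classes.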

How the results depend on the processing

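The members' fold changes gave 1566 values under the alternatives run. Of these, 1539 kept their side of the call, 10 passed it only under the alternative and 17 lost it, and 0 called values changed sign. Of the 1539, 30 values of 17 results changed sign and were called in neither fit, the largest in LXN in excitatory cluster 11 (0.21, and -4.90 without 18-month library 2). NNAT against striatal projection nuclei (0.87) was -0.27 in the 17-month libraries alone. The lost calls concern NNAT against inhibitory nuclei and against glia, SYNPR in excitatory cluster 12 and between the animals, NTNG2 in cluster 11 and SMIM32 in cluster 4, and their causes were not tested. Without the filter on low counts, 4171 genes were called against glia in place of 2531, with 16186 in place of 9306 genes tested. Between the animals, 1978 genes were called. Leaving out 1 library gave 324 to 2668 genes and 1 to 3 of the 10 members in place of 2, with 325 genes without 17-month library 1, 324 without 17-month library 2 and 1305 without 18-month library 1. In the first 2 of these fits the lone 17-month library is assumed to vary like the others. Within excitatory clusters 1, 2, 4 and 6, an alternative added after the data had been seen, 717, 1150, 413 and 449 genes were called, and 2, 3, 1 and 1 members. Fewer nuclei enter each sum there. In the other comparisons, leaving out 1 library kept counts within 1.5 times. With the replicate number as a block, 1748 genes and 3 members (LXN, SYNPR and NNAT) were called. The labels do not say that the numbers pair, so they were not taken as pairs. Same-numbered libraries of the animals deviated with correlations of 0.0056 and 0.092. The 17-month animal has only 2 libraries, whose deviations from their mean mirror each other, so these correlations cannot decide whether the numbers pair. Thinning to 2000 UMIs in place of 1000 put the highest share of 8 genes, in place of 6, in an excitatory cluster. Median depths of 984 to 2349 UMIs in shallow classes limit shares of LXN, SMIM32, SMYD1 and SLC30A3.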
